A study of Mus musculus and Rattus norvegicus with 24 samples.

Results

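The genes described here are 9 neuropeptide or granin precursors, Npy, Sst, Vgf, Penk, Tac1, Scg2, Adcyap1, Crh and Cck, and 1 receptor, Npy1r. They were found by their symbol in the platform annotation, and all 10 were measured in both species, among 22180 genes tested in mice and 18166 in rats. Whole-transcript microarrays measured RNA in the brains of mice and rats that had undergone permanent middle cerebral artery occlusion (pMCAO), where a filament pushed to the origin of the artery is left there to model ischaemic stroke. Tissue pieces of 3 by 3 mm came from the penumbra, the rim around the core of the infarct, or from a similar region on the same side in sham-operated animals, which had the surgery without the occlusion.

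There were 8 groups of 3 animals, 1 array per animal. Male C57BL/6 mice aged 8 to 10 weeks had pMCAO on the right side and were sampled at 2 h or 6 h, each time beside sham mice. Male Sprague-Dawley rats aged 8 to 12 weeks had pMCAO on the left side and were sampled at 2 h or 6 h, each time beside sham rats. No group carries a transgene, and the labels describe no drug treatment beyond isoflurane anaesthesia for the surgery. Each species has a single strain and sex, and the penumbra was taken as a fixed piece of tissue that holds many cell types. The mean level of 7 genes expressed by neurons of any type was 10.84 to 11.27 on the log2 scale on the mouse arrays and 11.09 to 11.87 on the rat arrays, where the median over all clusters lay between 5.82 and 6.75.

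Neuropeptides are made as longer precursor proteins, packed into dense-core vesicles together with granins, cut by prohormone convertases and released mainly during strong or repeated firing. They act on G protein-coupled receptors, often on neighbouring cells, over a longer time than classical transmitters. In the forebrain Npy and Sst are made by GABAergic interneurons, Tac1 and Penk are strongly expressed in the projection neurons of the striatum, and Cck, Adcyap1 and Scg2 are also made by excitatory neurons. Transcription of several of these genes follows cyclic AMP and calcium through the factor CREB, which binds the cyclic AMP response element.

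Sequence upstream of the start was taken from RefSeq (mouse, GRCm38.p6) for the 7 members its table holds, and the other members, Vgf, Penk and Crh, are named only. The 250 bases before the start of Scg2 (chr1:79440027-79440276, minus strand), Npy (chr6:49822460-49822709, plus strand) and Tac1 (chr6:7554811-7555060, plus strand) are shown. These are the called members whose window lies outside the annotated gene, though Scg2 passed in rats and not in mice, the species of the sequence. Each is written 5′ to 3′ along its gene's strand, and capitals mark the element TGACGTCA.
Scg2: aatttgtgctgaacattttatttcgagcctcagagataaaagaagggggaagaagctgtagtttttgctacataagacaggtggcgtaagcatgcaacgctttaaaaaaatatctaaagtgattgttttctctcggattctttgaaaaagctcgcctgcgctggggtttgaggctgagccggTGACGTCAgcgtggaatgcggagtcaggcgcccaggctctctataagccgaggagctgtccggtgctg
Npy: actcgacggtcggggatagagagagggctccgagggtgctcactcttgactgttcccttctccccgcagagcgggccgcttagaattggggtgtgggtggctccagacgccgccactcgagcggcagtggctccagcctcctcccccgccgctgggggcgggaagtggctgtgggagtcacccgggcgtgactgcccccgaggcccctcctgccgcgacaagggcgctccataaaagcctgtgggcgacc
Tac1: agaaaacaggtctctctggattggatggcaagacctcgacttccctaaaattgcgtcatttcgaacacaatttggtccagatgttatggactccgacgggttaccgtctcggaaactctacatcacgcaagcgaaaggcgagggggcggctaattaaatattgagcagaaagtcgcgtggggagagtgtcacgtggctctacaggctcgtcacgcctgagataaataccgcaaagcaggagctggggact

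The element occurred for 2 of the 7 members, at -68 to -61 before the Scg2 start and at -48 to -41 before the Sst start. It is its own reverse complement, so both strands were read at once, and 1.55% of 32851 upstream windows of this length held it. TGACTCA, the AP-1 motif, was read on both strands, does not contain the first motif and occurred in 4.46% of the windows. It was found for 1 of the 7 members, Npy1r, at -231 to -225. The Sst and Npy1r windows lie inside the annotated genes, unlike the Scg2 window. The windows before Npy and Tac1 held neither motif. These matches describe letters in the sequence and not sites of binding.

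At 2 h no member passed the test in either species. By limma, 0 of 10 were called in mice, where 0.298% of all genes were called, and 0 of 10 in rats, where 0.0661% were called. An unadjusted p under 0.05 was found for 1 of 10 mouse members (Npy1r) and 0 of 10 rat members. Over all genes 1711 of 22180 in mice and 1287 of 18166 in rats had such a p. At 6 h in mice 1 member rose and 2 fell. Among all mouse genes 7.43% were called at that time, 3.21% higher and 4.23% lower. At 6 h in rats 3 members rose and 0 fell. Among all rat genes 6.47% were called, 2.85% higher and 3.62% lower. The median member log2 fold change at 6 h was 0.22 in rats, against -0.02 for all rat genes, and 0.025 in mice, against -0.02 for all mouse genes. Values below are log2 expression on each array, and a change is pMCAO minus sham on that scale with its standard error (SE). P-values are from limma with Benjamini-Hochberg adjustment over all genes of the species, and rose or fell is written where the adjusted p was below 0.05. Those of species differences are instead from a t test on both limma fits, adjusted over the symbols matched between the species.

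**Figure D1:**
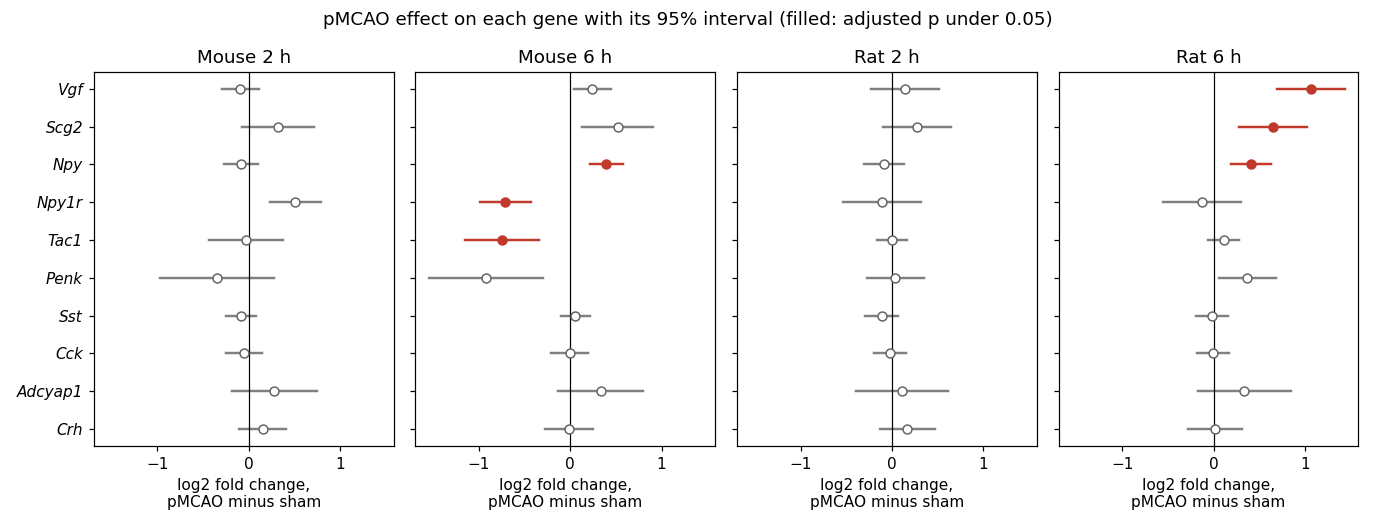
Change of each gene after pMCAO (x axis, log2 fold change, pMCAO minus sham) with its 95% interval, in mice and rats at 2 h and 6 h; filled red symbols passed an adjusted p of 0.05 in limma. No symbol is filled at 2 h, and at 6 h Npy is filled in both species, Npy1r and Tac1 in mice, and Vgf and Scg2 in rats.

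Vgf encodes a granin-like precursor that neurotrophins and neuronal activity induce in neurons, and its fragments act as secreted peptides. At 6 h in rats it read 7.96, 7.64 and 8.52 after pMCAO, against 7.00, 7.00 and 6.92 after sham surgery. Every pMCAO rat lay above every sham rat, and the pMCAO rats were spread over a wider range than the sham rats. Vgf rose by 1.07 ± 0.17 (SE), which is 2.09-fold with a 95% interval of 1.62 to 2.71 (limma adjusted p = 0.00403). It was the member with the largest rise at either time.

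Mouse Vgf at 6 h read 8.50, 8.54 and 8.77 after pMCAO, against 8.53, 8.29 and 8.26 after sham surgery, so the groups overlapped through 1 sham mouse. The change was 0.24 ± 0.09 and did not pass (limma adjusted p = 0.142). The test of the difference between the species, mouse change minus rat change, gave -0.82 ± 0.19 at 6 h (adjusted p = 0.0291 over 14193 symbols matched between the species). At 2 h Vgf read 8.38 to 8.57 after pMCAO and 8.50 to 8.64 after sham surgery in mice, and 7.98 to 8.15 after pMCAO and 7.73 to 8.03 after sham surgery in rats. The groups overlapped in both species at that time.

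The rat call for Vgf was kept in all 16 alternative fits, with limma adjusted p from 0.000772 to 0.0402. The call of the species difference was lost without sham mouse 1 (adjusted p = 0.0655), pMCAO rat 1 (0.0579) or any 1 sham rat (0.0767 to 0.0810), with values from -0.74 to -0.86.

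Scg2 encodes secretogranin II, an acidic granin of the dense-core vesicle core and the precursor of secretoneurin. At 6 h in rats it read 9.19, 8.90 and 9.38 after pMCAO, against 8.61, 8.54 and 8.36 after sham surgery. The groups did not overlap. Scg2 rose by 0.65 ± 0.17, or 1.57-fold with a 95% interval of 1.22 to 2.04 (limma adjusted p = 0.0427). This call was lost without pMCAO rat 1, pMCAO rat 3 or any 1 sham rat (values 0.54 to 0.71, adjusted p 0.0839 to 0.134).

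Mouse Scg2 at 6 h read 9.19, 10.00 and 10.10 after pMCAO, against 9.29, 9.19 and 9.25 after sham surgery. A pair of pMCAO mice lay well above all sham mice, and pMCAO mouse 1 lay level with the lowest of them. The change of 0.52 ± 0.18 did not pass (limma adjusted p = 0.101), and without pMCAO mouse 1 it was 0.81 (adjusted p = 0.000319). The species difference at 6 h was -0.13, with a 95% interval of -0.64 to 0.38. At 2 h the pMCAO mice read 9.71, 9.77 and 9.84, against 9.42, 9.44 and 9.50 in sham mice, and did not overlap with them, yet the change of 0.32 did not pass (adjusted p = 0.729). At 2 h in rats Scg2 read 9.65, 9.42 and 8.93 after pMCAO and 9.11, 8.88 and 9.19 after sham surgery, and the groups overlapped.

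Npy, the precursor of neuropeptide Y, rose by a similar amount in both species at 6 h. In mice it read 9.74, 9.64 and 9.83 after pMCAO, against 9.40, 9.31 and 9.31 after sham surgery, and every pMCAO mouse lay above every sham mouse. The rise was 0.40 ± 0.08, or 1.32-fold with a 95% interval of 1.16 to 1.49 (limma adjusted p = 0.0179). In rats it read 9.55, 9.83 and 9.64 after pMCAO, against 9.12, 9.25 and 9.42 after sham surgery, again without overlap. The rise was 0.41 ± 0.10, or 1.33-fold with a 95% interval of 1.14 to 1.55 (limma adjusted p = 0.0322). The mouse change minus the rat change was -0.01 at 6 h, with a 95% interval of -0.28 to 0.26.

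At 2 h Npy read 9.38, 9.50 and 9.53 after pMCAO and 9.66, 9.62 and 9.38 after sham surgery in mice. In rats it read 10.07, 9.91 and 10.02 after pMCAO and 10.21, 9.98 and 10.07 after sham surgery. The groups overlapped in both species. The mouse call at 6 h was lost without pMCAO mouse 3, sham mouse 2 or sham mouse 3 (adjusted p 0.0560 to 0.0641), and the rat call without pMCAO rat 2, pMCAO rat 3, sham rat 1 or sham rat 2 (adjusted p 0.0637 to 0.123). In these fits Npy stayed between 0.35 and 0.38 in mice and between 0.33 and 0.43 in rats.

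Npy1r encodes the Y1 receptor of neuropeptide Y, which couples to inhibitory G proteins and lowers cyclic AMP. The mouse arrays at 6 h read 7.78, 7.84 and 7.52 after pMCAO, against 8.32, 8.48 and 8.47 after sham surgery. All pMCAO mice lay below all sham mice. Npy1r fell by 0.71 ± 0.13, to 0.611 of the sham level with a 95% interval of 0.503 to 0.742 (limma adjusted p = 0.0101). The call was kept when any 1 mouse was left out, with adjusted p from 0.0197 to 0.0429.

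At 2 h the order of the mouse groups was the opposite. Npy1r read 8.20, 8.66 and 8.74 after pMCAO, against 8.06, 7.99 and 8.01 after sham surgery, without overlap. The change of 0.51 ± 0.13 did not pass (limma adjusted p = 0.241), and without pMCAO mouse 1 it was 0.68 (adjusted p = 0.0227). The change at 6 h minus the change at 2 h was -1.22 ± 0.18 (adjusted p = 0.0379), and Npy1r was the 1 member called for change over time in mice, where 0.171% of all genes were called. That call was lost in 10 of the 12 fits that left out 1 mouse, those without pMCAO mouse 1 at 2 h or at 6 h being the exceptions, with values from -1.12 to -1.29 and adjusted p from 0.0602 to 0.119 where it was lost.

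In rats Npy1r overlapped between the groups at both times. At 2 h it read 7.70, 8.54 and 8.14 after pMCAO and 8.38, 8.12 and 8.21 after sham surgery. At 6 h it read 7.67, 7.72 and 7.18 after pMCAO and 7.81, 7.71 and 7.44 after sham surgery, a change of -0.13 with a 95% interval of -0.56 to 0.30 (limma adjusted p = 0.757). The species difference did not pass at either time, with 0.62 at 2 h (adjusted p = 0.998) and -0.58 at 6 h (adjusted p = 0.217), so the mouse fall was not shown to differ from the rat value.

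Npy5r, another receptor of neuropeptide Y, was on the receptor list and fell in rats. It read 5.08, 5.18 and 5.23 in pMCAO rats at 6 h, against 5.91, 5.76 and 5.69 in sham rats, a change of -0.62 ± 0.11 (limma adjusted p = 0.00820). Its mouse change of -0.14 at 6 h did not pass (adjusted p = 0.310), and the species difference of 0.48 did not pass either (adjusted p = 0.0713). The 6 h values of Npy5r in pMCAO rats lay below the rat array medians of 5.82 to 5.87.

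**Figure D2:**
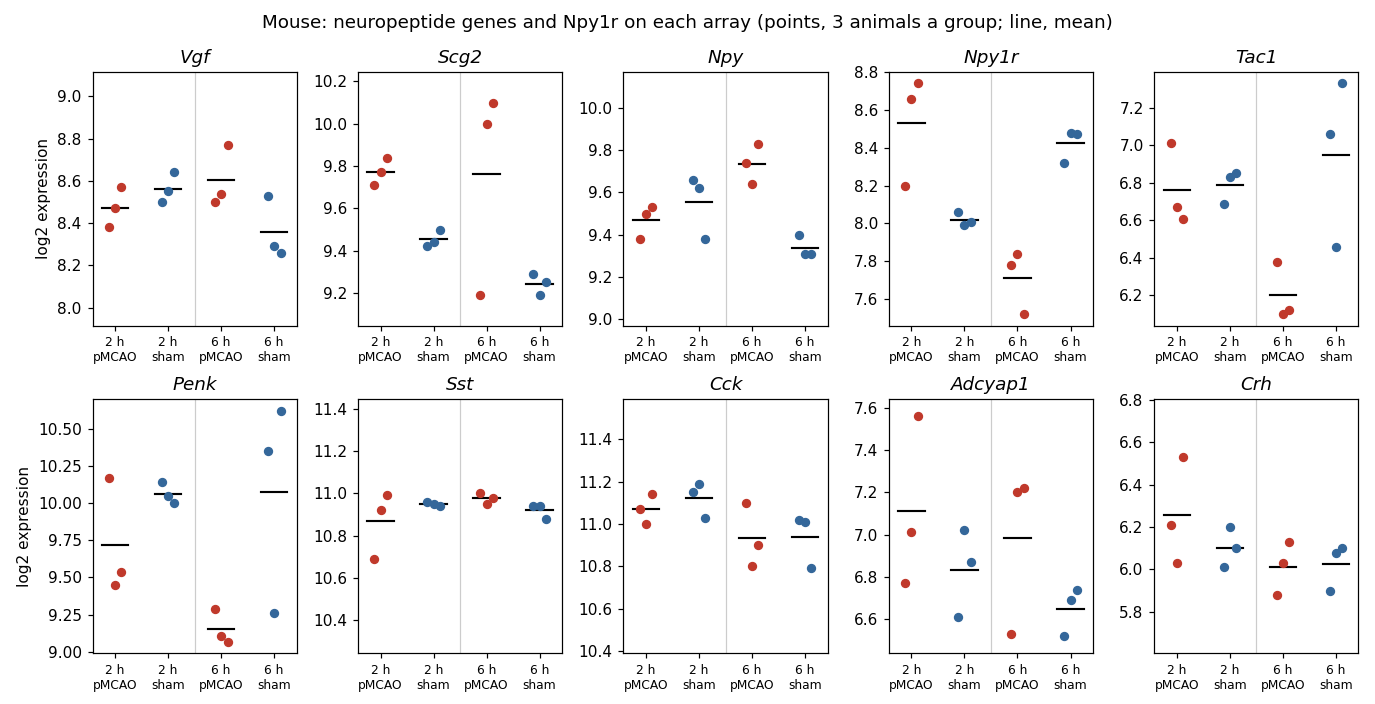
Log2 expression (y axis) of the 10 genes on each mouse array, with 3 animals per group as points and the group mean as a line; pMCAO is red and sham blue. At 6 h Npy lies above sham and Npy1r and Tac1 below it without overlap, while Penk and Tac1 spread widely among the sham mice.

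Tac1 encodes the precursor of substance P and neurokinin A. Mouse Tac1 at 6 h read 6.38, 6.10 and 6.12 after pMCAO, against 7.06, 6.46 and 7.33 after sham surgery. The groups did not overlap, with sham mouse 2 close to the highest pMCAO mouse. Tac1 fell by 0.75 ± 0.18, to 0.595 of the sham level with a 95% interval of 0.449 to 0.787 (limma adjusted p = 0.0335). The call was lost without pMCAO mouse 2 or 3 or without sham mouse 1 or 3 (adjusted p 0.0904 to 0.111).

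Penk encodes the precursor of the enkephalins, opioid peptides. Mouse Penk at 6 h read 9.29, 9.11 and 9.07 after pMCAO, against 10.35, 9.26 and 10.62 after sham surgery. Sham mouse 2 lay between the pMCAO mice, while the other sham mice read far higher. The change of -0.92 ± 0.29 did not pass (limma adjusted p = 0.0747), and without sham mouse 2 it was -1.33 (adjusted p = 0.00594).

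Markers of striatal projection neurons moved with both genes in mice at 6 h. Of 10 listed markers, 7 were measured, and their mean was 6.69, 6.59 and 6.51 in pMCAO mice, against 7.55, 6.77 and 7.82 in sham mice. Sham mouse 2, low for Tac1 and Penk, was also the lowest sham mouse for these markers. Of the 7 markers 2 fell and 0 rose, namely Drd2, the dopamine D2 receptor, by 1.64 ± 0.41 (limma adjusted p = 0.0355), and Isl1, a transcription factor of striatal development, by 0.52 ± 0.12 (adjusted p = 0.0221). The other 5 changed by -0.62 to -0.70 without passing.

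With the mean of these markers as a covariate, the change in mice at 6 h was -0.11 for Tac1 (limma adjusted p = 0.725) and 0.12 for Penk (adjusted p = 0.667). In the same fit Npy1r changed by -0.89 (adjusted p = 0.0932) and Npy by 0.35 (adjusted p = 0.294). That fit called 53 of all mouse genes, against 1649 without the covariate. In tissue of mixed cells, fewer cells of a type, another share of striatum in the piece and less RNA per cell cannot be told apart. Among sham mice at 2 h the mean of the choroid plexus markers ran from 6.298 to 8.334. How evenly the pieces were cut was not tested.

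At 2 h in mice Tac1 read 7.01, 6.67 and 6.61 after pMCAO and 6.69, 6.83 and 6.85 after sham surgery. Penk read 10.17, 9.45 and 9.54 after pMCAO and 10.14, 10.05 and 10.00 after sham surgery. Striatal markers averaged 7.49, 7.00 and 6.98 in pMCAO mice and 7.32, 7.26 and 7.33 in sham mice. In all 3 measures pMCAO mouse 1 read above every sham mouse and the other pMCAO mice below every sham mouse.

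In rats at 6 h both genes stood above sham in all animals, but by small amounts that did not pass. Tac1 read 5.55, 5.57 and 5.60 after pMCAO, against 5.49, 5.45 and 5.45 after sham surgery, a change of 0.11 ± 0.08 (limma adjusted p = 0.441). Penk read 8.72, 8.65 and 8.97 after pMCAO, against 8.48, 8.30 and 8.45 after sham surgery, a change of 0.37 ± 0.14 (adjusted p = 0.149). The striatal markers, 8 of 10 measured and 0 called, averaged 6.35 to 6.38 in pMCAO rats and 6.23 to 6.34 in sham rats.

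At 2 h in rats Tac1 read 6.06, 5.88 and 6.16 after pMCAO and 5.97, 6.04 and 6.08 after sham surgery. Penk read 9.41, 9.33 and 9.21 after pMCAO and 8.90, 9.43 and 9.51 after sham surgery. Both overlapped between the groups.

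The species differed at 6 h for both genes. For Tac1 the mouse change minus the rat change was -0.86 ± 0.20 (t test on both limma fits, adjusted p = 0.0337). For Penk it was -1.29 ± 0.32 (adjusted p = 0.0422). Rat Tac1 at 6 h, at 5.45 to 5.60, lay below the rat array medians of 5.82 to 5.87, and whether a fall could be measured at that level was not tested. With Vgf these made 3 of 10 members called, against 2.28% of the matched genes. With the striatal covariate in both species, an alternative chosen after seeing the data, the differences were -0.20 for Tac1 (adjusted p = 0.668), -0.13 for Penk (0.842) and -0.94 for Vgf (0.0862). At 2 h 0 of 10 members were called for a species difference by the same t test, against 0.0141% of the matched genes. An unadjusted p under 0.05 was found for 1 member (Npy1r), against 562 of the 14193 matched genes.

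Leaving out 1 animal lost the Tac1 difference without pMCAO mouse 2 or 3, sham mouse 1 or 3 or sham rat 2 (values -0.67 to -0.85, adjusted p 0.0561 to 0.112). It lost the Penk difference without any 1 animal except sham mouse 2 or pMCAO rat 2 (values -1.02 to -1.36, adjusted p 0.0511 to 0.133).

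**Figure D3:**
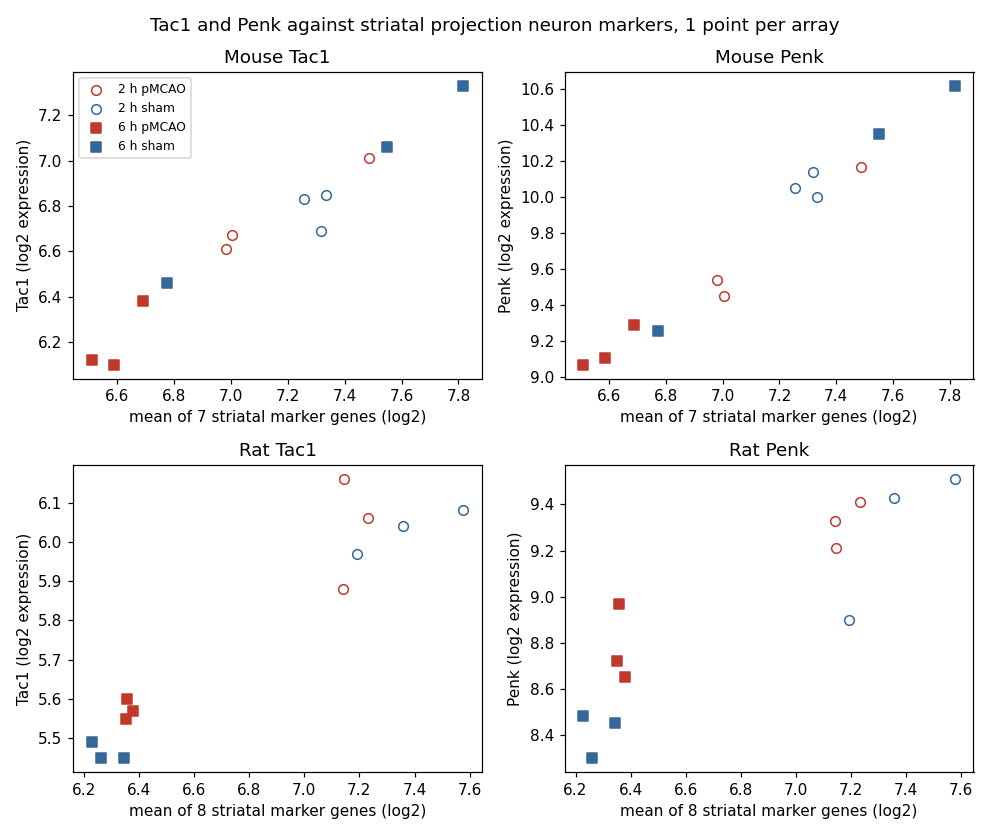
Tac1 and Penk (y axes, log2 expression) against the mean of the striatal projection neuron markers (x axes, log2), 1 point per array, in mice and rats; squares are 6 h and open circles 2 h, with pMCAO red and sham blue. In mice at 6 h the pMCAO arrays and sham mouse 2 sit at the low end of both axes and the other sham mice at the high end.

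Sst and Cck did not pass in any comparison. Sst, the precursor of somatostatin, read 11.00, 10.95 and 10.98 in pMCAO mice at 6 h, against 10.94, 10.94 and 10.88 in sham mice. The groups did not overlap, but the change was 0.06 with a 95% interval of -0.10 to 0.22 (limma adjusted p = 0.691). In rats at 6 h Sst read 9.90, 9.90 and 9.84 after pMCAO and 9.92, 9.94 and 9.83 after sham surgery, a change of -0.02 with an interval of -0.20 to 0.16. At 2 h Sst read 10.69 to 10.99 after pMCAO and 10.94 to 10.96 after sham surgery in mice, and 9.74 to 9.99 after pMCAO and 9.92 to 10.10 after sham surgery in rats.

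Npy and Sst are often made by the same interneurons, and the 6 h rise of Npy stood beside no call for Sst in either species. Of the listed interneuron markers measured at 6 h, 1 of 10 rose and 2 fell in mice, and 1 of 11 rose and 1 fell in rats. In mice Htr3a, a serotonin-gated channel, rose by 0.24 ± 0.06, while Dlx5, a transcription factor, fell by 0.39 ± 0.08 and Pvalb, the calcium buffer parvalbumin, fell by 0.34 ± 0.07 (limma adjusted p 0.0136 to 0.0344). In rats Slc32a1, the vesicular GABA transporter, rose by 0.26 ± 0.07 and Dlx1 fell by 0.39 ± 0.08 (adjusted p = 0.0450 and 0.0190).

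Cck, the precursor of cholecystokinin, read 11.10, 10.80 and 10.90 in pMCAO mice at 6 h and 11.02, 11.01 and 10.79 in sham mice. Rat Cck at 6 h read 9.46, 9.54 and 9.52 after pMCAO and 9.61, 9.40 and 9.52 after sham surgery. The groups overlapped, and the 95% intervals of the change ran from -0.21 to 0.19 in mice and from -0.18 to 0.17 in rats. At 2 h Cck read 11.00 to 11.14 after pMCAO and 11.03 to 11.19 after sham surgery in mice, and 9.70 to 9.84 after pMCAO and 9.69 to 9.91 after sham surgery in rats.

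Adcyap1, the precursor of the peptide PACAP, whose receptors raise cyclic AMP, varied widely among pMCAO animals. In rats at 6 h it read 7.45, 7.38 and 8.40 after pMCAO and 7.50, 7.64 and 7.08 after sham surgery. The third pMCAO rat stood above all other rats of that time, and the other pMCAO rats lay within the sham range. In mice at 6 h it read 6.53, 7.20 and 7.22 after pMCAO and 6.52, 6.69 and 6.74 after sham surgery, with pMCAO mouse 1 within the sham range and the others above it. The change was 0.34 ± 0.23 in rats (limma adjusted p = 0.438) and 0.33 ± 0.21 in mice (adjusted p = 0.381). At 2 h Adcyap1 read 6.77 to 7.56 after pMCAO and 6.61 to 7.02 after sham surgery in mice, and 7.68 to 8.01 after pMCAO and 7.62 to 7.90 after sham surgery in rats.

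Crh, the precursor of corticotropin-releasing hormone, read 5.88 to 6.13 in pMCAO mice at 6 h and 5.90 to 6.10 in sham mice. In rats at 6 h it read 5.45 to 5.92 after pMCAO and 5.56 to 5.70 after sham surgery. At 2 h it read 6.03 to 6.53 after pMCAO and 6.01 to 6.20 after sham surgery in mice, and 5.97 to 6.48 after pMCAO and 5.93 to 6.07 after sham surgery in rats. The groups overlapped in all 4 comparisons. The 95% interval of the 6 h change was -0.27 to 0.24 in mice and -0.28 to 0.32 in rats. At 6 h all sham rats, and all pMCAO rats but the highest, lay below the rat array medians of 5.82 to 5.87. At 2 h all rats lay below the medians of 6.67 to 6.75. In mice at 6 h Crh lay near the medians of 5.92 to 5.96. Whether a change of Crh could be measured at these levels was not tested.

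**Figure D4:**
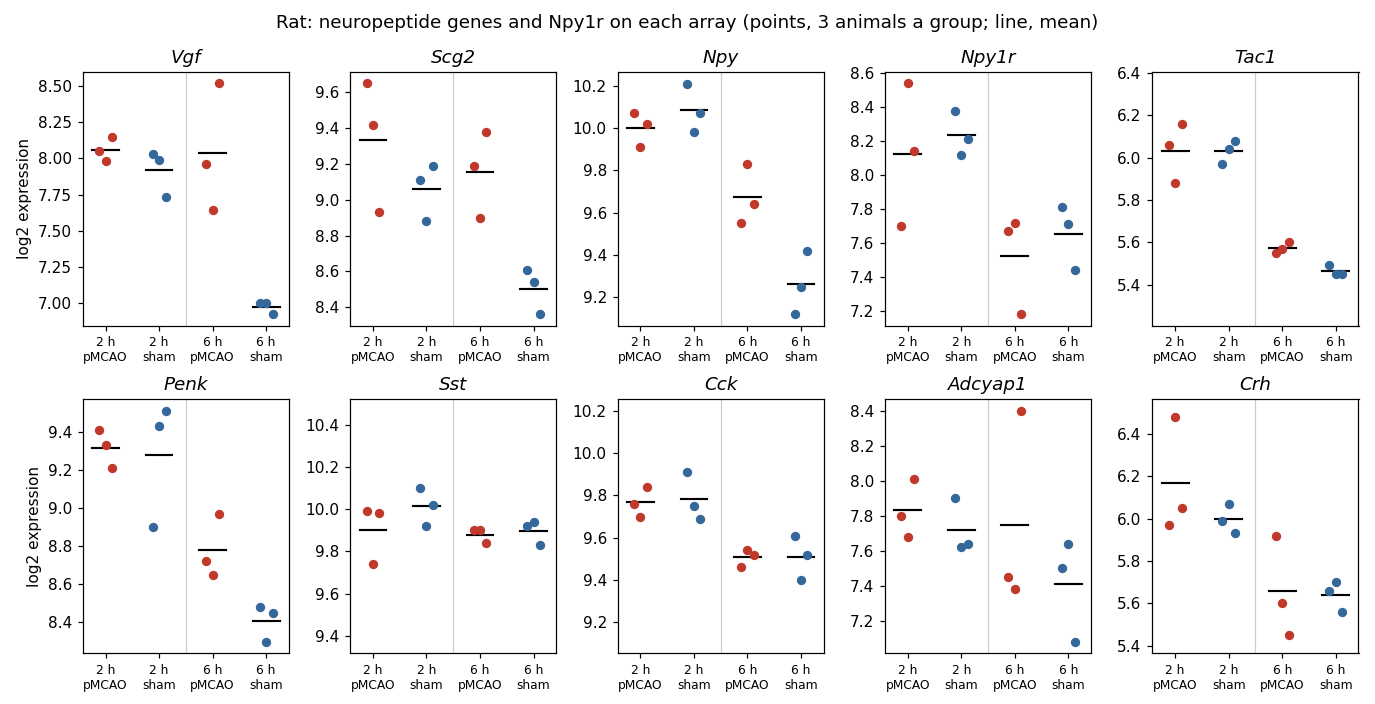
Log2 expression (y axis) of the 10 genes on each rat array, with 3 animals per group as points and the group mean as a line; pMCAO is red and sham blue. At 6 h Vgf, Scg2, Npy, Penk and Tac1 lie above sham without overlap, while at 2 h all 10 genes overlap.

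Counting groups without overlap, rats at 6 h had 5 members with pMCAO above sham and 0 below, against 24.5% of all rat genes without overlap, 9.73% above and 14.8% below. Mice at 6 h had 2 above and 2 below, against 25.3% of all mouse genes, 10.7% above and 14.6% below. At 2 h mice had 2 above and 0 below, against 14.6% of mouse genes, 6.24% above and 8.39% below, and rats had 0, against 13.1% of rat genes. In rats 0 of 10 members were called by limma for change over time, against 0.231% of rat genes. An unadjusted p under 0.05 was found for 2 members, Vgf and Npy, against 1966 of the 18166 rat genes. For Vgf the difference between the 6 h and 2 h changes was 0.92 ± 0.24 (adjusted p = 0.171). Without 6 h pMCAO rat 2 it was 1.12 (adjusted p = 0.0299). For Npy the difference was 0.50 ± 0.14 (adjusted p = 0.216).

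Most other neuropeptide precursors did not pass. Of 49 listed, 45 were measured in mice and 43 in rats, and 2 rose and 0 fell at 6 h in each species, with 0 called at 2 h in either. Adm, the precursor of the vasodilator adrenomedullin, rose by 1.16 ± 0.10 in mice (limma adjusted p = 0.000254) and by 0.91 ± 0.11 in rats (adjusted p = 0.000987). It read 6.23, 6.42 and 6.54 in pMCAO mice at 6 h, against 5.14, 5.20 and 5.36 in sham mice, and 6.81, 6.76 and 7.08 in pMCAO rats, against 5.90, 5.84 and 6.17 in sham rats. The groups were far apart in both species. Nts, the precursor of neurotensin, singled out after its values were seen, read 4.66 to 4.76 in pMCAO rats at 6 h, against 6.69 to 6.91 in sham rats, without overlap. Its change of -2.10 ± 0.66 did not pass (limma adjusted p = 0.0817) in the fit of all 12 rat arrays, where the 2 h groups had SDs of 1.47 and 1.33 and the 6 h groups 0.05 and 0.11. From the 6 arrays of that time alone, an alternative added for Nts after seeing the data, the adjusted p was 8.5e-05.

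Edn1, the precursor of the vasoconstrictor endothelin 1, rose in mice by 0.65 ± 0.13 (limma adjusted p = 0.0162). In rats its change was 0.44 ± 0.14 (adjusted p = 0.0911), and the species difference of 0.21 did not pass (adjusted p = 0.661). Cartpt, the precursor of CART peptides, rose in rats by 0.68 ± 0.13 (adjusted p = 0.00911). It read 6.63, 6.59 and 6.85 in pMCAO rats, against 5.77, 6.23 and 6.02 in sham rats. In mice Cartpt read 6.64, 6.75 and 6.39 after pMCAO and 6.95, 6.73 and 6.44 after sham surgery, which overlapped. Its species difference was -0.80 ± 0.18 (adjusted p = 0.0225).

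No other granin or processing gene passed with Vgf or Scg2. Of 12 listed, among them prohormone convertases and chromogranins, limma called 0 of 11 measured in mice and 0 of 10 in rats at either time. Of 24 listed receptors and binding proteins, 24 were measured in mice, where 1 rose at 6 h, and 18 in rats, where 2 rose and 1 fell, with 0 called at 2 h. Vipr1, a receptor for VIP and PACAP, rose in mice by 0.63 ± 0.12 (limma adjusted p = 0.0106). Crhbp, which binds corticotropin-releasing hormone outside the cell, rose in rats by 0.65 ± 0.10 (adjusted p = 0.00298). Cckbr, the main brain receptor of cholecystokinin, rose in rats by 0.47 ± 0.11 (adjusted p = 0.0239), and the fall of Npy5r completes the rat calls. Crhbp changed by 0.20 and Cckbr by 0.37 in mice without passing.

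Genes of the cyclic AMP and activity response were already called at 2 h. Of 18 listed, 17 were measured in mice, of which 4 rose at 2 h and 9 at 6 h, and 18 in rats, of which 1 rose at 2 h and 11 at 6 h. None fell past the threshold in either species. At 2 h Npas4, a transcription factor induced by calcium entry, rose in mice by 3.08 ± 0.26 and Fosb by 1.86 ± 0.23, with Fos at 1.80 ± 0.23 and Rgs2 at 0.98 ± 0.16 (limma adjusted p 0.000506 to 0.0309). In rats at 2 h the gene called was Fos, with 2.44 ± 0.34 (adjusted p = 0.0182). Rat Npas4 at 2 h, given after its values were seen, did not pass. It read 8.73, 12.74 and 10.92 after pMCAO and 7.44, 6.94 and 6.87 after sham surgery, a wide spread without overlap. At 6 h the largest rises were of Fosb (2.02 ± 0.23), Npas4 (2.00 ± 0.26), Nptx2 (1.83 ± 0.23) and Inhba (1.68 ± 0.19) in mice, and of Npas4 (3.91 ± 0.69), Fos (3.71 ± 0.34), Fosb (2.83 ± 0.26) and Junb (2.46 ± 0.29) in rats (limma adjusted p 0.000153 to 0.00708).

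Of the 12 marker lists for cells that the tissue piece could hold, limma called 0 markers at 2 h in either species. At 6 h P2ry12, a microglial receptor, fell by 0.78 ± 0.09 in mice and 0.85 ± 0.23 in rats. Slco1a4, a transporter of brain endothelium, fell by 0.82 ± 0.11 in mice and by 1.90 ± 0.17 in rats, and Neurod6, a transcription factor of cortical excitatory neurons, fell by 0.73 ± 0.10 in mice and by 0.91 ± 0.21 in rats (limma adjusted p 0.000124 to 0.0484). Most cortical excitatory markers were not called. In mice 2 of 7 measured fell, and the median change of the list was 0.003. In rats 1 of 6 fell, and the median was -0.185. In mice Gfap of astrocytes rose by 0.89, while Rorb of cortical excitatory neurons (-0.57), Stmn2 of neurons (-0.22) and Csf1r of microglia (-0.25) fell. Of the markers measured in mice, limma called 1 of 7 for astrocytes (median change 0.02) and 1 of 7 for neurons of any type (-0.14). It called 2 of 6 for microglia (-0.13) and 1 of 6 for endothelium (-0.145). In rats S100a9 of neutrophils rose by 0.99 and Tmem119 of microglia fell (-0.42). Of the markers measured in rats, 1 of 7 was called for neutrophils (median change 0.33), 2 of 6 for microglia (-0.305) and 1 of 4 for endothelium (-0.31). No marker of oligodendrocytes, choroid plexus, meningeal fibroblasts or hypothalamus was called at 6 h. The part of these marker changes in the members' changes was not tested.

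The genes whose values lay nearest to those of a called member were found over the 12 arrays of the species, after centring each gene within its time, by the root mean square (RMS) difference in log2 units. Nearest to mouse Npy were Iffo1 (0.0585), Iffo2 (0.0668) and Cars (0.0675). Nearest to mouse Npy1r were Ankrd34c (0.121), Flrt2, a cell adhesion molecule (0.123), and Kcnv1, a potassium channel subunit (0.142). These 3 were chosen for nearness to Npy1r on these same arrays. Their changes above 0 at 2 h (0.36 to 0.60) and below 0 at 6 h (-0.54 to -0.73) are therefore no separate result. Nearest to mouse Tac1 were Dach1 (0.0925), the retinoic acid receptor Rarb (0.0936) and Mme, a protease that cuts enkephalins and substance P (0.107), of which Rarb is on the striatal marker list.

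In rats the nearest to Npy were Tmem97 (0.0824), Dbf4 (0.0833) and Tmem44 (0.0867). Those nearest to Vgf were Angptl4, an inhibitor of lipoprotein lipase (0.104), Gdpd5 (0.104) and Midn (0.116). Those nearest to Scg2 were the kinase Sik2 (0.121), the amino acid transporter Slc1a4 (0.133) and Arhgef3 (0.135). All arrays of a species share a platform, so this measure describes likeness of values alone.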

How the data were processed

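The authors deposited log2 expression values per transcript cluster, 1 table per species with 12 arrays each, made with oligo and limma per the submitters' processing notes, with no version given. Background correction, normalization and the array build are not stated in the labels or files, and the files hold no detection calls, so the precision rests on 3 animals per group. Sample titles gave the groups and the replicate numbers. A separate time label reads 2 h for all samples and was not used. Median log2 values differed between times (rats 6.67 to 6.75 at 2 h, 5.82 to 5.87 at 6 h), and pMCAO was therefore set against sham of the same time.

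Where a symbol had several clusters, the cluster with the highest mean was tested. Group means were fitted over all 12 arrays of a species with limma 3.58.1 in R 4.3.3 (eBayes defaults, two-sided, Benjamini-Hochberg over all genes, threshold 0.05). Species differences were tested from both fits with Welch-Satterthwaite degrees of freedom over 14193 matched symbols. An exact permutation test of 3 against 3 cannot go below 0.1. The fits were tested on simulated data. The members, 4 pathway lists and 12 marker lists were chosen with earlier results of these data known. Beyond the members, the text names at most 4 called genes per list and comparison, with the largest changes, and the 3 genes nearest to each called member, leaving out predicted and microRNA genes. Alternatives covered normalization, filters, the fit, a striatal covariate and leaving out each animal. Figures were drawn with matplotlib 3.10.9.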

Additional observations from a re-analysis of the deposited data

Results flagged for a closer look

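4 differences between changes passed their own test, by limma for Npy1r and by the t test on both limma fits for the others. Npy1r in mice had log2 values of 0.51 at 2 h, which did not pass alone (adjusted p = 0.241), and -0.71 at 6 h, a difference of -1.22 ± 0.18 (SE, adjusted p = 0.0379). That call was lost in 10 of 12 fits without 1 mouse (adjusted p 0.0602 to 0.119). All 3 pMCAO mice lay above all 3 sham mice at 2 h and below all 3 at 6 h.

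The other 3 were differences between species at 6 h, mouse change minus rat change. Vgf had -0.82 ± 0.19 (t test on both limma fits, adjusted p = 0.0291), from changes of 0.24 in mice and 1.07 in rats. Penk had -1.29 ± 0.32 (adjusted p = 0.0422), from -0.92 in mice and 0.37 in rats, neither of which passed alone. Tac1 had -0.86 ± 0.20 (adjusted p = 0.0337), from -0.75 in mice and 0.11 in rats.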

How the results depend on the processing

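Of 10 called results for single members, all 10 kept their sign in every alternative run and 1, Vgf in rats at 6 h, stayed called in all of them. Counts of members called by limma, or by the t test on both fits for mouse minus rat, moved as follows, and the cause was not tested. In mice at 6 h 3 were called, against 1 from the 6 arrays of that time alone and 0 with a log2 fold limit of 1. In the fit to which that limit was applied 6 had an unadjusted p under 0.05, against 5176 of all 22180 mouse genes. With the striatal covariate 0 were called (2 unadjusted). In rats at 6 h 3 were called, against 1 from 6 arrays alone, 1 with all transcript clusters, 1 with the fold limit, 1 with the replicate block and 1 with the covariate. For change over time in mice 1 was called, against 0 with all clusters (4 unadjusted), 0 with the replicate block (4 unadjusted), 0 with the covariate (3 unadjusted) and 2 with trend and robust eBayes. For mouse minus rat at 6 h 3 were called, against 0 with all clusters (4 unadjusted), 1 with array weights and, added after seeing the data, 0 with the covariate (2 unadjusted). Leaving out 1 animal gave 0 to 1 in mice at 2 h, 1 to 4 in mice at 6 h, 1 to 2 in rats at 6 h, 0 to 1 for change over time in either species and 0 to 3 for mouse minus rat at 6 h. Of all genes, the same fits called 23 to 42 in mice at 2 h, 616 to 1368 in mice at 6 h and 550 to 1268 in rats at 6 h. For change over time they called 0 to 85 in mice and 11 to 140 in rats, and for mouse minus rat at 6 h 142 to 386. With all animals these numbers were 66, 1649, 1175, 38, 42 and 323.

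The animals share only replicate numbers: same-numbered pMCAO and sham arrays had deviations correlated over genes at -0.125 to -0.0136 in mice at 2 h, -0.00629 to 0.0501 in mice at 6 h, -0.0157 to 0.327 in rats at 2 h and 0.0229 to 0.0658 in rats at 6 h. No set had every pair over 0.1, so the numbers were not taken as pairs. With them as a block, the calls lost were Npy in rats (adjusted p = 0.0582), Scg2 in rats (0.0550) and the change over time of Npy1r (0.0742). Leaving out dim genes gave Penk in mice at 6 h an adjusted p of 0.0449.

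With 3 animals per group, the number of arrays limits the precision, and signal near background could not be recognised without detection calls.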

Other observations

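At 6 h in rats several activity-related genes were high or low in the same pMCAO animal. Among the pMCAO rats, rat 3 was the highest of the 3 for 5 of 10 members, Vgf, Scg2, Penk, Adcyap1 and Tac1, and for 11 of 18 genes of the cyclic AMP and activity list, against 35.0% of all genes. Rat 3 was also the lowest of the 3 for 3 of 10 members, Npy1r, Sst and Crh, against 34.8% of all genes. On the activity list pMCAO rat 2 was the lowest of the 3 for 14 of those 18 genes (77.8%), against 35.0% of all genes. Among the members rat 2 was the lowest for 4 of 10, which is near that share. The activity list did not point to rat 3 alone. Rat 1 was the highest for 6 of the 18 genes, against 33.6% of all genes. These included Fos (11.17, against 10.79 and 10.80 in the other pMCAO rats) and Npas4 (12.39, against 11.70 and 11.94). Among the genes highest in rat 3, Inhba, a subunit of activins, read 7.30, 7.12 and 9.99 in pMCAO rats and 6.65 to 6.72 in sham rats. Nptx2, a secreted synaptic pentraxin, read 9.68, 9.30 and 11.07 in pMCAO rats and 7.78 to 8.00 in sham rats. Bdnf, the neurotrophin, named after its values were seen, read 7.17, 6.55 and 8.37 in pMCAO rats and 5.97 to 6.20 in sham rats.

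In mice at 6 h pMCAO mouse 1 was the lowest of the 3 for Scg2 and Adcyap1, and also for Inhba (8.00, against 8.60 and 8.50 in the other pMCAO mice) and Bdnf (6.94, against 7.44 and 7.47). The same mouse was the highest of the 3 for Fos, with 8.19, against 7.83 and 7.37. Over the activity list pMCAO mouse 1 was the lowest for 6 of 17 genes and the highest for 6 of 17, against 32.3% and 31.1% of all mouse genes. The members did not point to 1 mouse. Of the 10 members pMCAO mouse 1 was the highest for 4 and the lowest for 4, and pMCAO mouse 3 the highest for 5 and the lowest for 2. On the activity list pMCAO mouse 3 was the lowest for 9 of the 17 genes (52.9%). Over all mouse genes it was the highest for 35.4% and the lowest for 31.3%.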
